A study of Mus musculus with 39 samples.

Results

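Cav1, Cav2, Ehd2, Pacsin2, Dnm2, Plvap, Mfsd2a and Tfrc are 8 genes of caveolae, of the diaphragm that closes endothelial openings and of the control of transport across endothelial cells. They were chosen by gene symbol, as 8 of the 24946 genes listed in every table. No rule on their values was used, but earlier results of these data were known. Messenger RNA was measured by sequencing of endothelial cells isolated from the brains of C57BL/6 pups, in models of hereditary haemorrhagic telangiectasia, a disease of fragile and malformed vessels. All mutants carried Cdh5-CreERT2, a tamoxifen-dependent recombinase driven by an endothelial promoter, together with a floxed gene, and all wild types carried the same floxed gene without Cre. The genotypes were Smad4f/f and Smad4f/f; Cdh5-CreERT2 at postnatal day 7, Engf/f and Engf/f; Cdh5-CreERT2 at day 7, and Alk1f/f and Alk1f/f; Cdh5-CreERT2 at day 6, with 5 libraries in each of the 6 groups. Tamoxifen was given at 300 µg on days 1, 2 and 3 to Smad4 and Eng pups and at 100 µg on day 4 to Alk1 pups. Floxed gene, age and tamoxifen schedule therefore cannot be told apart between the Alk1 cohort and the other cohorts. A further Smad4 cohort received 30 µg of control IgG (3 wild types and 3 mutants) or of LC10, an inhibitor of the vessel-destabilizing ligand Ang2 (3 mutants), on days 2 and 4. The labels number the libraries within a group but do not say that each came from a separate pup, so p-values measure the spread between these libraries.

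Caveolae are flask-shaped pits of the plasma membrane. The membrane proteins caveolin-1 (Cav1) and caveolin-2 (Cav2) build their coat, the ATPase EHD2 and the membrane-bending protein PACSIN2 sit at the neck, and dynamin-2 (Dnm2) is the GTPase that pinches vesicles off. PLVAP forms the diaphragm that spans caveolae and fenestrae of leaky vessels and is low in mature barrier vessels of the brain. MFSD2A carries lysophosphatidylcholine with long-chain fatty acids into the brain and is known to hold caveolar transcytosis down, while the transferrin receptor (Tfrc) takes iron-loaded transferrin into the same cells through clathrin-coated pits.

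Tfrc messenger carries hairpins that iron regulatory proteins bind when iron is low. Bound in a 3′ untranslated region they protect the messenger from decay, and in a 5′ untranslated region they block its translation. GENCODE M21 transcripts (mm10) were searched for C, any 5 bases, the loop CAGTGN with a last base other than G, and 5 bases that pair with those before the loop. G-T pairs were allowed. The search found 4 such elements in the Tfrc 3′ region, on the plus strand of chromosome 16. They are shown because Tfrc is the member with the largest fall below, with the 5′ elements of 3 genes of iron storage and export for comparison. Slc11a2, another gene of iron handling, was searched as well and gave no match. Capitals mark the 6-base loop, and sequences run 5′ to 3′ as DNA letters.
Tfrc element at chr16:32631225-32631241: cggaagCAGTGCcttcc
Tfrc element at chr16:32631604-32631620: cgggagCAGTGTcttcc
Tfrc element at chr16:32631669-32631685: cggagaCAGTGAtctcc
Tfrc element at chr16:32631716-32631732: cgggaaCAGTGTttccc
Fth1 element (ferritin heavy chain) at chr19:9982738-9982754, plus strand: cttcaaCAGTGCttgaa
Ftl1 element (ferritin light chain) at chr7:45459785-45459801, minus strand: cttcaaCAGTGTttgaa
Slc40a1 element (the iron exporter ferroportin) at chr1:45925471-45925487, minus strand: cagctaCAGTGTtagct

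Cav2 and Cav1 are neighbours on the plus strand of chromosome 6, at 17281185 to 17289115 and 17306335 to 17341452, with 17.2 kb between the end of Cav2 and the start of Cav1. Mfsd2a lies on the minus strand of chromosome 4 at 122946850 to 122961188, and Tfrc on the plus strand of chromosome 16 at 32608920 to 32632794. The 250 bases before the first RefSeq start (GRCm38.p6) of these 4 genes are shown. They were picked because Cav1 and Cav2 parted in the Eng cohort and Mfsd2a and Tfrc fell together in 2 cohorts. Windows from 250 bases before to 50 after the start were found for 7 of the 8 members, Plvap being the other, and were searched on both strands. Capitals mark ACGTG on either strand, the core of the hypoxia response motif, which 19.6% of all 32851 windows hold, and GGCGCC, a GC-rich SMAD motif, which 11.9% hold.
Cav2, chr6:17280935-17281184, plus strand: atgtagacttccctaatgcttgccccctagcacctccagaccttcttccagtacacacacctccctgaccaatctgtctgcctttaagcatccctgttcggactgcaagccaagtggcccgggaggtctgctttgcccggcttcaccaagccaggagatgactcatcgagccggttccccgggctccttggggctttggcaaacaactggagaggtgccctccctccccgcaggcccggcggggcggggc
Cav1, chr6:17306085-17306334, plus strand: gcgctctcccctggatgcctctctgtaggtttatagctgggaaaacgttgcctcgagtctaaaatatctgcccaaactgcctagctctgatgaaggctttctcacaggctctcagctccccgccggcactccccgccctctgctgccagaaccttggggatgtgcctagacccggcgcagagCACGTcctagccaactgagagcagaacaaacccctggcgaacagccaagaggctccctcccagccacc
Mfsd2a, chr4:122961189-122961438, minus strand: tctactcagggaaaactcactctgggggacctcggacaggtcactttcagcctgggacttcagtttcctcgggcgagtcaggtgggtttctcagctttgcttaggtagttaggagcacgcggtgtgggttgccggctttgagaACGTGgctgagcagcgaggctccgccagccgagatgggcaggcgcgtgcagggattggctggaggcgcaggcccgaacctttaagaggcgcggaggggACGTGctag
Tfrc, chr16:32608646-32608895, plus strand: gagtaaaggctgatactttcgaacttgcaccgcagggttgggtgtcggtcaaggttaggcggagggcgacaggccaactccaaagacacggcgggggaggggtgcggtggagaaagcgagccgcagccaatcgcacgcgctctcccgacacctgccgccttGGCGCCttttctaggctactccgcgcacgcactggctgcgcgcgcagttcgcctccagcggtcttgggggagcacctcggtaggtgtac
The core ACGTG occurs at -107 and at -9 before the Mfsd2a start, its reverse complement at -68 before the Cav1 start, and GGCGCC at -89 before the Tfrc start. A further ACGTG of Tfrc begins at -2 and runs past the printed stretch. A second Tfrc window overlaps the first and holds this same site, at -228 from its own start. Of the members not shown, Dnm2 has the reverse complement at -81 and Ehd2 GGCGCC at -28. The palindromic SMAD element GTCTAGAC (0.213% of windows) and the TCF/LEF motif CTTTGAT (3.73%) were in no window of the 7 genes. Such matches describe letters only and say nothing of binding.

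Levels are the deposited normalised values, which are relative to sequencing depth and comparable within a table. Inferred depth was 11.1 to 30.9 M fragments per library. Smad4 messenger fell by 1.65 on the log2 scale in untreated Smad4 mutants (adjusted p = 2.18e-08, limma) and by 1.37 in IgG-treated mutants (adjusted p = 0.000559). Eng messenger fell by 2.65 in Eng mutants (adjusted p = 1.14e-09). Acvrl1, the gene for ALK1, was at 14152 in the libraries labelled Alk1 mutant and 15319 in their wild types (log2 difference -0.12 ± 0.08 SE, adjusted p = 0.279). After dividing by totals or quantile normalization its change was -0.19 and -0.25 (adjusted p = 0.0304 and 0.00825, in a range to 0.807 over 22 alternatives). The deletion of Alk1 is thus taken from the label, and which part is floxed is not given in the sources used here.

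The libraries expressed 8 of 8 endothelial markers, whose summed level overlapped between genotypes in the 3 untreated cohorts. In the IgG cohort it did not, at 364681 to 381517 in wild types and 392647 to 397403 in mutants. Single endothelial markers did move, as 2 of 8 rose in Smad4, 3 rose and 1 fell in Alk1, 2 fell in Eng and 2 rose with IgG. Their log2 changes ran from -0.06 (Kdr) to 0.39 (Pecam1) in Smad4 and from -0.38 (Kdr) to 0.33 (Emcn) in Alk1. In Eng they ran from -0.18 to 0.10, and with IgG from -0.08 to 0.26 (Pecam1). The summed level of 6 erythroid genes was 31138 to 44833 in Smad4 wild types and 11510 to 18594 in mutants, and 40556 to 67902 against 16028 to 23786 in the Alk1 cohort, without overlap in either cohort. In the Eng cohort it was 27005 to 48306 against 18132 to 31985, and in the IgG libraries 33612 to 54468 against 14224 to 36443. Of the erythroid genes tested, 3 of 4 fell in Smad4, 4 of 4 in Alk1, 3 of 5 in Eng and 1 of 4 in IgG-treated mutants. The summed level of 8 pericyte markers was 55905 to 78999 in Smad4 wild types and 16135 to 49606 in mutants, with 5 of 8 markers lower. It overlapped in the Alk1 cohort, where 2 of 8 were lower, and in the Eng cohort, where 0 of 8 passed the test. In the IgG cohort it did not overlap (74992 to 103931 against 37584 to 71935). The summed level of 5 smooth muscle markers was apart in Smad4 (2011 to 2704 against 443 to 1797), Alk1 (1906 to 2390 against 868 to 1577) and IgG libraries (1683 to 2395 against 1063 to 1645), and overlapped in Eng. Acta2 and Myh11, contractile proteins of smooth muscle, fell in those 3 comparisons, and Des, an intermediate filament protein, fell in Smad4 and Alk1. In Smad4 4 of 6 neuron, 2 of 6 oligodendrocyte, 1 of 6 astrocyte, 2 of 5 fibroblast and 0 of 6 microglia markers fell. Their list medians were -1.56, -1.47, -1.33, -0.86 and -0.25. In Alk1 1 neuron and 1 fibroblast marker fell, and in Eng 0 in each list. With IgG 6 of 6 microglia markers fell, with sums apart (15636 to 31097 against 9506 to 14763). There 2 astrocyte, 2 fibroblast and 1 neuron marker also fell, while 1 neuron marker rose. The part of these cells in the results below was not tested beyond the marker terms given. Of 5 markers of cycling cells, 4 rose in Smad4 mutants, and 5 rose in each of the Alk1, Eng and IgG cohorts.

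Per kb of exon, Mfsd2a and Tfrc were the most abundant members in each wild-type group and stood among the top 0.258 to 0.509% of expressed genes. Their order relative to each other changed between groups, since Mfsd2a was higher in Smad4 wild types (14958 ± 1523 against 10941 ± 1526 per kb, SD, n = 5) and Tfrc was higher in Eng wild types (21360 ± 3311 against 18377 ± 2416 per kb). The ranges of these neighbours overlapped in the wild types of all 3 untreated cohorts, with 12734 to 16469 for Mfsd2a and 9705 to 13570 for Tfrc per kb in Smad4. Cav1 followed at 4388 to 5460 per kb and Ehd2 at 1896 to 2620 per kb as group means. Dnm2, Cav2 and Plvap lay closer together, at 1533, 1331 and 1311 per kb in Smad4 wild types, where Cav2 and Plvap overlapped between libraries. Pacsin2 was the least abundant member per kb in every wild-type group, at 674 to 849.

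All 8 members passed the filter on low values in every cohort. With an adjusted p under 0.05 as the threshold, 5 of the 8 changed in Smad4 mutants, 5 in the libraries labelled Alk1 mutant and 3 in Eng mutants, where 33.0, 33.2 and 21.5% of all genes tested were called. In the IgG cohort it was 2 of 8 beside 23.6% of all genes. Counts of this size, over 8 genes, do not set the members apart from other genes. In Smad4 mutants 3 members rose (17.2% of all genes did) and 2 fell (15.8%), and in the Alk1 cohort 2 rose (17.5%) and 3 fell (15.7%). In Eng mutants 2 rose (12.4%) and 1 fell (9.08%), and with IgG 1 rose (13.0%) and 1 fell (10.6%). The median log2 change of the 8 was -0.01, -0.04, 0.04 and 0.02 in Smad4, Alk1, Eng and IgG mutants, beside -0.01, -0.01, -0.01 and 0.00 over all genes tested. Mfsd2a was the member that fell in all 4 comparisons. With the erythroid level as a term, which the genotypes of the Smad4 and Alk1 cohorts split without overlap, calls dropped to 0 of 8 members and 120 genes in Smad4 and to 1 member (Tfrc) and 499 genes in Alk1. With the pericyte and smooth muscle level as a term they were 3 members in Alk1 and 1 with IgG, where genes called dropped from 3346 to 467. Dividing each library by its total changed the higher calls from 52.1 to 37.2% of all calls in Smad4 and from 52.7 to 41.1% in Alk1.

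**Figure D1:**
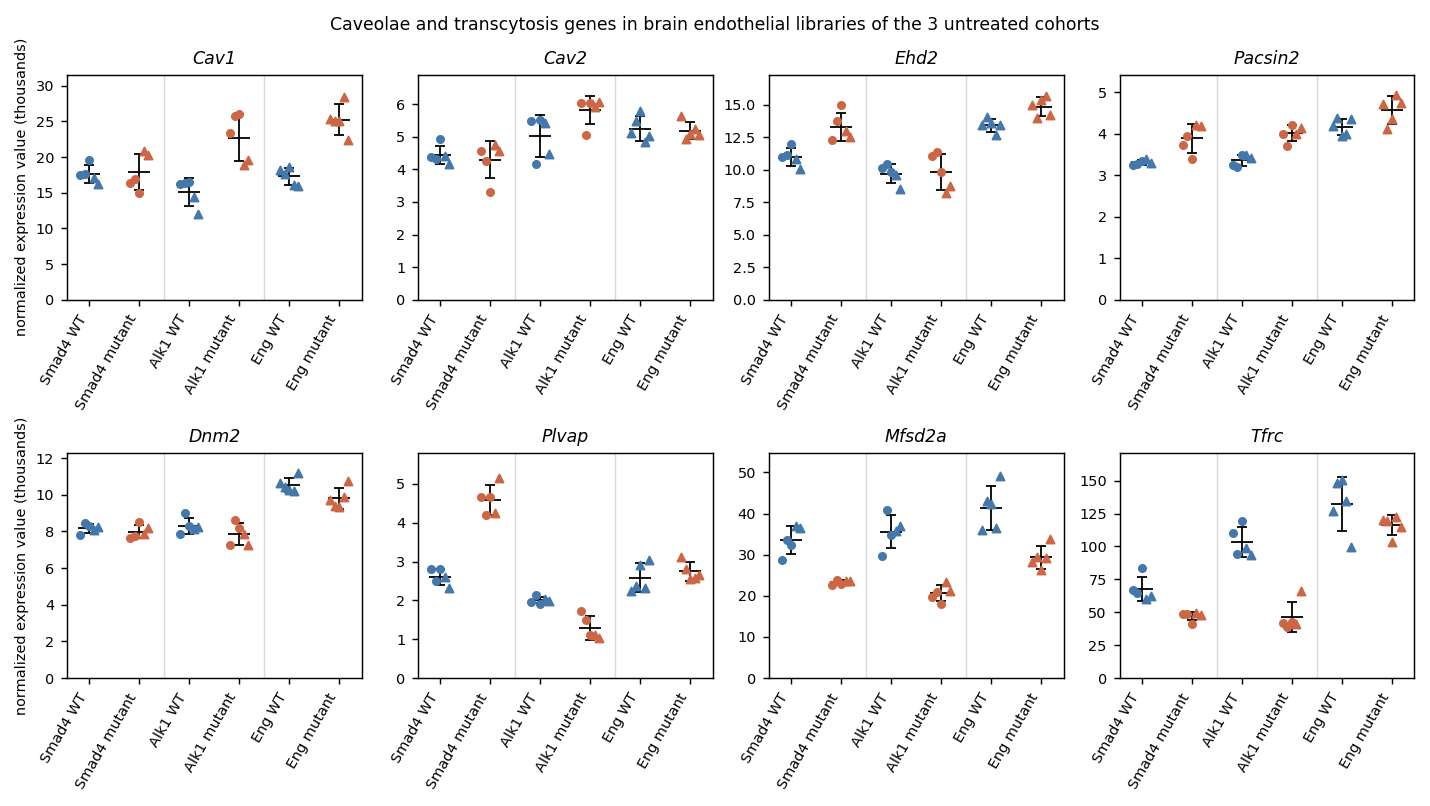
Normalised expression value (in k, axis from 0) of each member in every library of the untreated Smad4, Alk1 and Eng cohorts, wild type in blue and mutant in red; bars give the mean and SD of 5 libraries. Triangles are libraries whose column name carries a library code and circles those without; Mfsd2a mutants lie below all wild types in each cohort, while Plvap mutants lie above them in Smad4 and below them in Alk1.

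Cav1, whose product is the main coat protein of caveolae, rose in the libraries labelled Alk1 mutant and in Eng mutants. In Eng wild types its values were 18155, 17604, 18613, 16155 and 16000, and in Eng mutants 25309, 25123, 25016, 28415 and 22465. Every mutant library was above every wild type, and the change was 1.46-fold (log2 0.54 ± 0.06 SE, adjusted p = 9.38e-05). In the Alk1 cohort wild types had 16252, 16383, 16511, 14387 and 12034 and mutants 23310, 25809, 26077, 18929 and 19608. These groups did not overlap either, with a 1.5-fold change (log2 0.59 ± 0.12, adjusted p = 0.00233). With pericyte and smooth muscle marker level as a term the Alk1 change was 0.38 with adjusted p = 0.11, within a range of 2.66e-05 to 0.551, with the erythroid level as a term, over its 22 alternatives. Non-overlap between groups was seen for 16.5% of all genes in Eng and 24.5% in Alk1.

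Smad4 mutants had Cav1 values of 16327, 16940, 15037, 20897 and 20265, beside 17483, 17618, 19604, 17013 and 16266 in wild types. The groups overlapped, the log2 change was 0.02 ± 0.09 (95% interval -0.19 to 0.22) and it did not pass the test (adjusted p = 0.916). The Smad4 libraries fall into 3 per group without a library code and 2 per group with code L146. Without a code the Cav1 change was -0.18 (adjusted p = 0.131) and with it 0.31 (adjusted p = 0.00619), and the adjusted p ranged from 0.00619 to 0.982 over 22 alternatives. The signs are opposite, the coded libraries were sequenced more deeply, and the difference between the subsets was not tested. The Smad4 change was lower than that of Alk1 by 0.57 ± 0.14 (adjusted p = 0.00527) and lower than that of Eng by 0.53 ± 0.14 (adjusted p = 0.0177) in a joint fit, in which 15.9 and 8.04% of all genes differed. The Alk1 and Eng changes differed by 0.04 (interval -0.25 to 0.33).

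Cav2, the partner of Cav1 in the coat, did not pass the test in any cohort. In Eng mutants its values were 5645, 4939, 5076, 5223 and 5064, within the wild-type span of 4847 to 5776 (log2 change -0.01 ± 0.05, interval -0.13 to 0.10, adjusted p = 0.888). In the Alk1 cohort wild types ran from 4171 to 5521 and mutants from 5054 to 6074 (log2 0.22 ± 0.09, adjusted p = 0.0825). Without the lowest Alk1 mutant library, replicate 2, this change was 0.27 with adjusted p = 0.0403, the range over 22 alternatives being 0.0393 to 0.721. The Smad4 change was -0.06 ± 0.09 (adjusted p = 0.653).

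The ratio of Cav1 to Cav2 within a library does not depend on how libraries are scaled. It was 3.19 to 3.56 in Eng wild types and 4.44 to 5.44 in Eng mutants, without overlap, a 1.47-fold difference. An exact two-sided permutation test gave p = 0.00794, the smallest that 5 against 5 libraries allow, and 0.0212 after Benjamini-Hochberg adjustment over 8 ratio tests. In the Alk1 cohort it was 3.05 ± 0.52 (SD, n = 5) in wild types and 3.95 ± 0.80 in mutants, with overlap (exact permutation p = 0.0635, adjusted 0.127). In the Smad4 cohort the means were 3.96 and 4.19 (exact permutation p = 0.31, adjusted 0.413). Both ratios were chosen after the values had been seen.

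Of the neck proteins, Ehd2 rose in Smad4 mutants, from 11002, 11122, 11968, 10846 and 10073 in wild types to 12278, 13757, 14980, 13006 and 12555. The groups did not overlap (22.8% of all genes in this cohort), and the change was 1.21-fold (log2 0.27 ± 0.07, adjusted p = 0.00939). Division by the library total (0.19, adjusted p = 0.0751) or quantile normalization (0.14, adjusted p = 0.226) ended the call, within a range of 0.00281 to 0.458. In the 3 and 3 Smad4 libraries without a code it was 0.26 (adjusted p = 0.0603). Eng mutants also had a called rise of 0.14 ± 0.04 (13945 to 15664 against 12649 to 14030, overlapping, adjusted p = 0.0243). Leaving out a library ended it for Eng wild type 4 (0.12, adjusted p = 0.0573), mutant 3 (0.13, adjusted p = 0.0618) and mutant 4 (0.12, adjusted p = 0.0631), as did the joint fit (adjusted p = 0.255, the highest of its range from 0.00915). In the Alk1 cohort Ehd2 was 8491 to 10457 in wild types and 8205 to 11335 in mutants (log2 0.01 ± 0.10, interval -0.20 to 0.22, adjusted p = 0.946).

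Pacsin2 rose in Smad4 mutants (3382 to 4197 against 3237 to 3396, log2 0.23 ± 0.06, adjusted p = 0.0158) and in the libraries labelled Alk1 mutant (3711 to 4217 against 3187 to 3478, log2 0.25 ± 0.06, adjusted p = 0.00416). The Alk1 call was lost after quantile normalization (0.16, adjusted p = 0.0693), with the pericyte and smooth muscle level (0.0508) or the erythroid level (0.361) as a term, and in libraries without a code, alone (0.0846) or with the replicate block (0.06). The Alk1 groups did not overlap, while 1 Smad4 mutant lay within the wild-type range. In Smad4 the change was 0.12 (adjusted p = 0.282) with pericyte and smooth muscle level as a term, 0.10 (0.251) with the glial and neuronal level and 0.16 (0.136) without coded libraries, within a range of 0.00154 to 0.519. In Eng mutants Pacsin2 had 4108 to 4932 against 3952 to 4370 (log2 0.13 ± 0.05, adjusted p = 0.101), and the adjusted p was 0.0293 without Eng mutant 2, the lowest of a range to 0.222, 0.0333 after division by totals and 0.0302 after quantile normalization. Dnm2 passed in no cohort with the main settings. Its changes were -0.03 ± 0.05 in Smad4 (adjusted p = 0.589), -0.09 ± 0.07 in Alk1 (adjusted p = 0.345) and -0.10 ± 0.04 in Eng (adjusted p = 0.111). Without Eng mutant 5 the Eng change of Dnm2 was -0.14 with adjusted p = 0.0182, the lowest of a range to 0.255. The Eng fall of Dnm2 also passed with the library code as a term (-0.10, adjusted p = 0.0203) and within L210 libraries (-0.12, 0.0262). Division by totals or quantile normalization brought Alk1 Dnm2 past the threshold (-0.16 and -0.20, adjusted p = 0.0434 and 0.0165), and quantile normalization did so in Smad4 (-0.15, 0.0496).

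**Figure D2:**
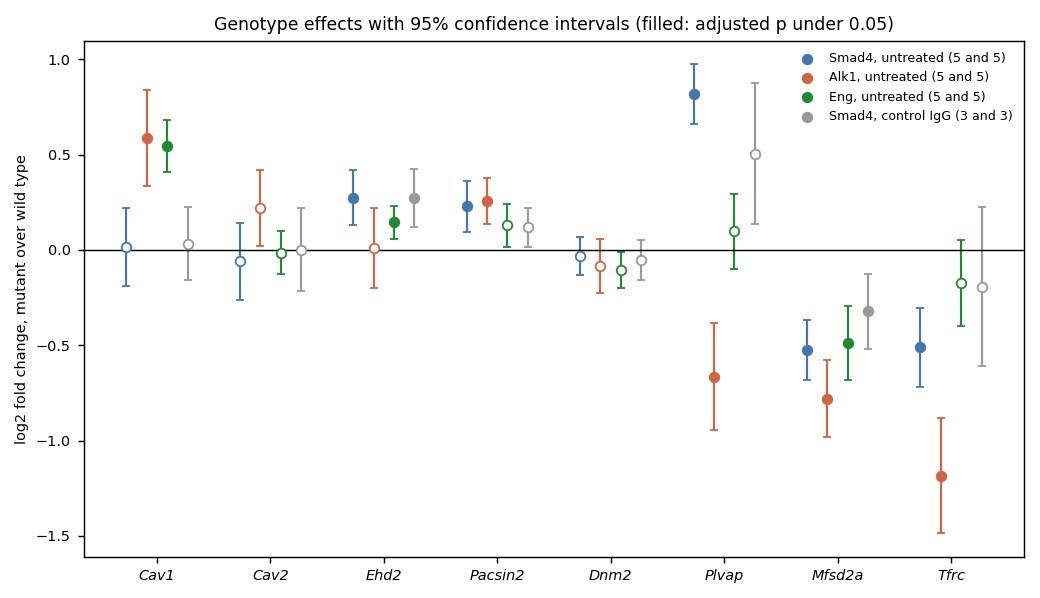
Log2 fold change of each member, mutant over wild type, with its 95% confidence interval, for Smad4, Alk1 and Eng without antibody (5 and 5 libraries) and the IgG-treated Smad4 cohort (3 and 3); filled points passed an adjusted p of 0.05. Plvap is at 0.82 in Smad4 and -0.66 in Alk1, Cav1 is raised in Alk1 and Eng, and Tfrc reaches -1.18 in Alk1.

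Plvap, the diaphragm protein, moved in opposite directions in the Smad4 and Alk1 cohorts. Smad4 wild types had 2800, 2492, 2807, 2599 and 2323, and Smad4 mutants 4675, 4209, 4652, 4259 and 5163. The lowest mutant was above the highest wild type, and the change was 1.76-fold (log2 0.82 ± 0.07, adjusted p = 1.39e-05). Alk1 wild types had 1969, 2135, 1916, 2041 and 1979, and the libraries labelled Alk1 mutant 1718, 1501, 1099, 1117 and 1026. All of the latter were lower, at 0.631 times the wild-type level (log2 -0.66 ± 0.13, adjusted p = 0.0021). Within the Alk1 libraries without a code (3 and 3) the change was -0.50 with adjusted p = 0.0694, and within code L219 (2 and 2) it was -0.91 with adjusted p = 0.000307. With the replicate number as a block the libraries without a code gave adjusted p = 0.0498. The adjusted p of the Alk1 change ranged from 1.42e-05 to 0.278, with the erythroid level as a term, over 22 alternatives. The Smad4 change was 0.80 with that term (adjusted p = 0.0742), the highest adjusted p of its 22 alternatives.

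In the Eng cohort Plvap was 2239, 2374, 2921, 2330 and 3043 in wild types and 3128, 2806, 2558, 2586 and 2656 in mutants. The groups overlapped and the change was 0.10 ± 0.09 (interval -0.10 to 0.29, adjusted p = 0.508). The Smad4 change exceeded that of Alk1 by 1.48 ± 0.15 (adjusted p = 7.09e-08) and that of Eng by 0.72 ± 0.15 (adjusted p = 0.00272), and the Alk1 change was below that of Eng by 0.76 ± 0.15 (adjusted p = 0.00108, 14.5% of all genes differing). Choroid plexus holds fenestrated vessels, and the summed level of its 4 epithelial markers was 29628 to 145520 in Smad4 wild types and 3984 to 26371 in mutants, with 4 of 4 markers lower. In the Alk1 cohort they overlapped (16864 to 35823 against 6373 to 25667), with 0 of 4 called. The part of choroid plexus in the Plvap values was not tested. In bulk libraries, fewer cells of a type and less RNA per cell cannot be told apart.

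Mfsd2a, the lipid transporter that restrains transcytosis, was lower in the mutants of all 3 untreated cohorts. In Smad4 wild types it was 28652, 33627, 32350, 37055 and 36595, and in mutants 22615, 23959, 22890, 23681 and 23488. The mutants lay in a narrow band below the lowest wild type, at 0.696 times the wild-type level (log2 -0.52 ± 0.07, adjusted p = 0.000329). In Alk1 wild types it was 29647, 40884, 34687, 35778 and 36910, and in the libraries labelled Alk1 mutant 19826, 20907, 18113, 23414 and 21208. Again there was no overlap, at 0.583 times (log2 -0.78 ± 0.09, adjusted p = 6.67e-05). Eng wild types ran from 35933 to 49154 with a median of 42283 and Eng mutants from 26274 to 33703 with a median of 29143. They too were apart, at 0.712 times (log2 -0.49 ± 0.09, adjusted p = 0.0021).

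The 3 falls of Mfsd2a were not shown to differ in size. The Smad4 change was above that of Alk1 by 0.26 (interval 0.00 to 0.51, adjusted p = 0.172) and that of Alk1 below that of Eng by 0.29 (interval -0.55 to -0.03, adjusted p = 0.126). Division by library totals (-0.38, adjusted p = 0.0335) or quantile normalization (-0.42, adjusted p = 0.0177) brought the latter difference past the threshold. Smad4 and Eng differed by -0.03 (interval -0.29 to 0.22). Over 22 alternatives the Smad4 change ran from -0.64 to -0.33, over 22 the Alk1 change from -0.87 to -0.38, and over 20 the Eng change from -0.54 to -0.42. The call was lost in Smad4 and Alk1 with the erythroid term (adjusted p = 0.444 and 0.207) and was kept in every other alternative run on these 3 cohorts.

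**Figure D3:**
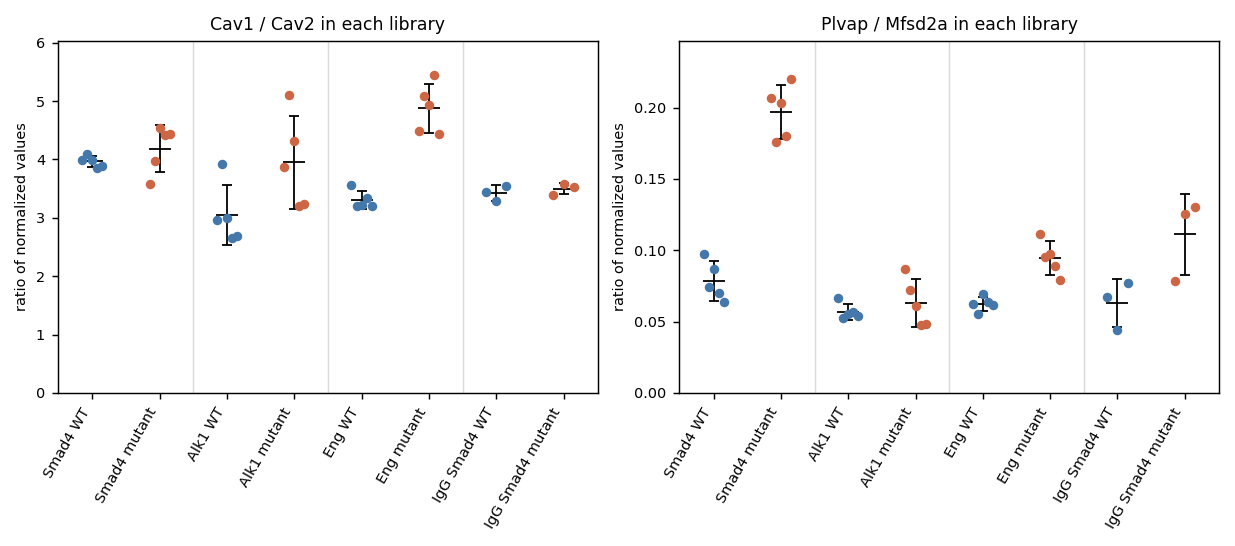
Ratio of Cav1 to Cav2 and of Plvap to Mfsd2a in each library of the untreated and IgG-treated cohorts, axes from 0, with mean and SD (5 libraries per untreated group, 3 with IgG). The Plvap to Mfsd2a ratio is 0.176 to 0.220 in Smad4 mutants against 0.0635 to 0.0977 in their wild types, and the Cav1 to Cav2 ratio is separated in the Eng cohort.

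Relative to Mfsd2a, Plvap was higher in Smad4 and Eng mutants. The ratio of Plvap to Mfsd2a values rose 2.53-fold in Smad4, from 0.0784 ± 0.0137 (SD, n = 5) to 0.197 ± 0.0187, and 1.5-fold in Eng, from 0.0625 ± 0.0050 to 0.0942 ± 0.0119. The groups did not overlap in either cohort (exact permutation p = 0.00794 each, adjusted 0.0212). In the Alk1 cohort both genes fell and the ratio was 0.0569 in wild types and 0.0630 in mutants, with overlap (exact permutation p = 0.548, adjusted 0.6). With IgG the ratio was 0.0444 to 0.0771 in wild types and 0.0786 to 0.130 in mutants, 1.77-fold and without overlap. Its exact permutation p was 0.1, the smallest that 3 against 3 libraries allow, and 0.16 after adjustment.

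Tfrc, the transferrin receptor, fell most in the libraries labelled Alk1 mutant. They had 41834, 39098, 42780, 41057 and 66438, and Alk1 wild types 110008, 94533, 119573, 99054 and 93875. All mutants were lower, at 0.44 times (log2 -1.18 ± 0.14, adjusted p = 5.76e-05), and 1 of them, replicate 5, stood well above the other mutants. Smad4 wild types had 66888, 64757, 83932, 60023 and 62750, and mutants 49043, 48740, 41396, 49232 and 47866. These groups were also apart, at 0.702 times (log2 -0.51 ± 0.10, adjusted p = 0.00239). In the Eng cohort wild types ran from 99808 to 150750 and mutants from 103246 to 122661 (log2 -0.17 ± 0.10, interval -0.40 to 0.05, adjusted p = 0.276). Without Eng wild type 5, the lowest wild type and 1 of 2 Eng libraries with code L216, the change was -0.27 with adjusted p = 0.0205, the lowest of a range to 0.906 over 20 alternatives.

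The fall of Tfrc in the Alk1 cohort was larger than in Eng by 1.01 ± 0.17 (log2 -1.01, adjusted p = 0.000186) and larger than in Smad4 (difference 0.67 ± 0.17, adjusted p = 0.00672). The latter was 0.54 with adjusted p = 0.051 after quantile normalization. Red cell precursors are rich in Tfrc, and the summed erythroid level was lower in the mutants of both cohorts in which Tfrc fell, as given above. In the Eng and IgG cohorts 3 of 5 and 1 of 4 erythroid genes also fell, while Tfrc did not pass the test. The highest erythroid gene, Hba-a1, an alpha globin, went from 42164 to 17375 in the Alk1 cohort and from 34724 to 12160 in Smad4. With the erythroid level as a term the Tfrc change was -1.40 in Alk1 (adjusted p = 0.0247) and -0.71 in Smad4 (adjusted p = 0.227). Genotype and erythroid level cannot be told apart in the Alk1 and Smad4 cohorts, since the groups do not overlap in that level.

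The antibody cohort gave the Smad4 comparison again in 3 and 3 other libraries. Ehd2 rose with IgG (12557 to 14328 against 10961 to 11561, log2 0.27 ± 0.07, adjusted p = 0.0194), but not without wild type 2 or mutant 2 (adjusted p = 0.0631 and 0.0686), after quantile normalization (0.0571) or with the glial and neuronal level as a term (0.126). Mfsd2a had 34617, 36016 and 33033 in IgG wild types and 32402, 25935 and 25105 in IgG mutants. The groups did not overlap, as for 40.7% of all genes with 3 against 3 libraries, and the log2 change was -0.32 ± 0.09 (adjusted p = 0.0269). It lost the call in 9 of 15 alternatives, among them those without wild type 1, wild type 2, mutant 2 or mutant 3 (adjusted p = 0.0617, 0.086, 0.0991 and 0.0806), and with the replicate block (adjusted p = 0.0566). Mfsd2a also lost it with the pericyte and smooth muscle (-0.14, adjusted p = 0.425), erythroid (-0.23, 0.138) or glial and neuronal level (-0.36, 0.0635) as a term. The same held for the IgG libraries alone (-0.32, adjusted p = 0.062), without the LC10 libraries that share the spread of the main fit. Plvap had 2320, 1600 and 2547 in wild types and 2548, 3248 and 3266 in mutants (log2 0.50 ± 0.17, adjusted p = 0.0522). Its call was gained without wild type 3 or without mutant 1 (0.64 and 0.62, adjusted p = 0.0324 and 0.0291).

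Tfrc was 76114, 79412 and 79341 in IgG wild types and 83555, 81732 and 47044 in IgG mutants, so that 2 mutants exceeded all wild types and 1 lay far below (log2 -0.19 ± 0.19, adjusted p = 0.479). Cav1, Cav2, Pacsin2 and Dnm2 changed by 0.03, 0.00, 0.12 and -0.05 with adjusted p of 0.8, 0.989, 0.09 and 0.457. None of the 8 effects differed between the untreated and the IgG-treated Smad4 cohort (limma, smallest adjusted p 0.813 for Plvap, 0 of 8 at an unadjusted p under 0.05), as for all but 1 of 14535 genes (0.00688%).

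With LC10 the 3 mutant libraries come from a table of their own, so treatment and table cannot be told apart and no test was made. After scaling by the median of ratios, Plvap was 2960, 3289 and 3731 beside 3021 ± 410 (SD, n = 3) in IgG mutants, and Mfsd2a was 27136, 28094 and 26862 beside 27814 ± 3995. Tfrc was 77553, 64096 and 69140 beside 70777 ± 20573, and Cav1 16545, 19400 and 15675 beside 19294 ± 1703. For all 8 members the LC10 and IgG mutants overlapped. The log2 differences ran from -0.17 for Cav1 to 0.14 for Plvap. For Mfsd2a and Ehd2, the members called in both Smad4 comparisons, LC10 mutants stood at 0.99 and 0.944 times the IgG mutant level.

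**Figure D4:**
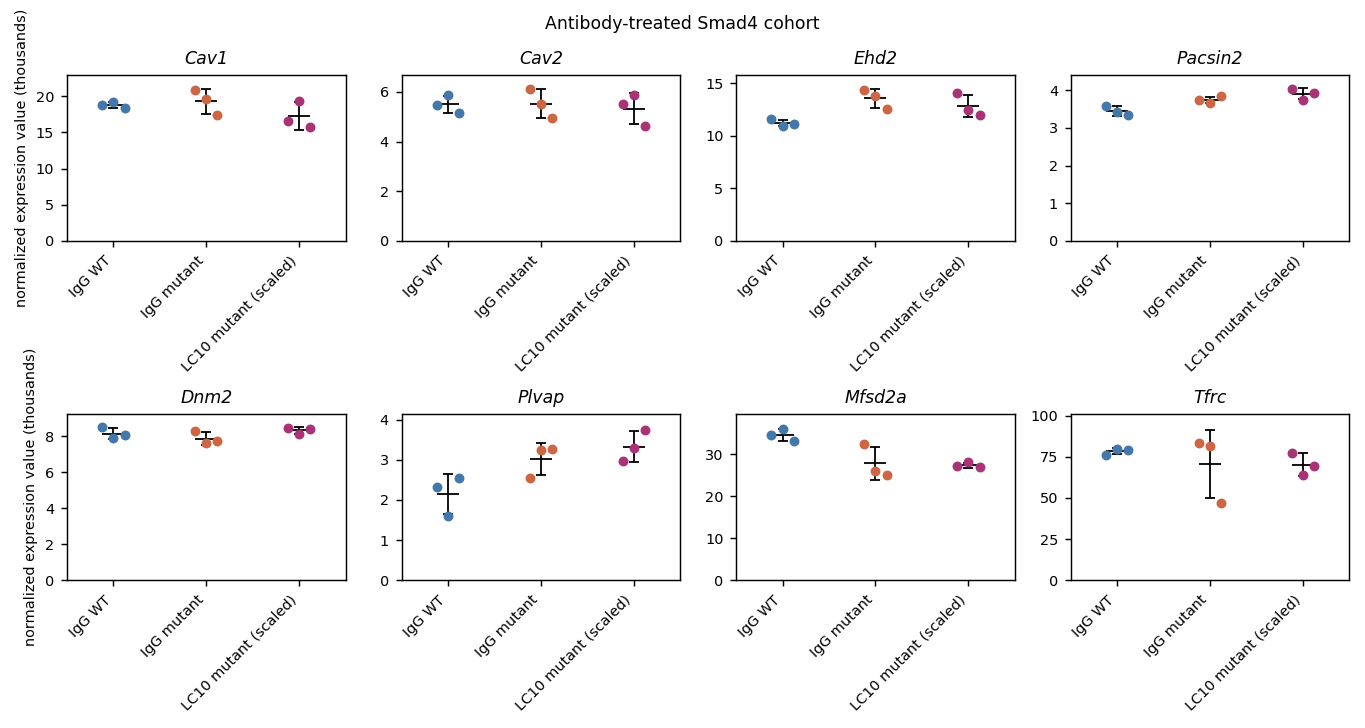
Normalised value (in k, axes from 0) of each member in IgG-treated wild types, IgG-treated Smad4 mutants and LC10-treated Smad4 mutants, the last scaled by the median of ratios, with mean and SD of 3 libraries. For all 8 members the LC10 mutants overlap the IgG mutants.

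Other genes of the caveola, 13 of 14 tested (Cav3, the muscle caveolin, was too low), are counted first, beside the shares of all genes tested that rose and fell. In Smad4 mutants 7 rose and 2 fell (17.2 and 15.8% of all genes) with a list median of 0.25, and in Alk1 7 rose and 1 fell (17.5 and 15.7%) with 0.24. In Eng 2 rose and 1 fell (12.4 and 9.08%) with 0.07, beside medians of -0.01 over all genes in these 3 cohorts. With IgG 3 rose and 2 fell (13.0 and 10.6%) with 0.02 beside 0.00. Of the 21 genes named here for the smallest adjusted p in the 7 lists, 17 were called in Smad4, 17 in Alk1, 11 in Eng and 12 with IgG. With the erythroid level as a term 14 of the Smad4 and 12 of the Alk1 calls were lost, 0 in Eng and 2 with IgG, and with the pericyte and smooth muscle level 6, 5, 0 and 7. Ehd4, a relative of Ehd2, rose from 4624 to 7600 in Smad4 (log2 0.72, adjusted p = 9.62e-06) and by 0.51 in Alk1 (adjusted p = 0.00017). With IgG its change was 0.28 and called in 2 of 15 alternatives, and in Eng it was called in 0 of 20. Cavin3, a coat subunit of caveolae, rose by 0.67 in Alk1 (1697 to 2710, adjusted p = 6.63e-05) and was 0.27 in Smad4 (adjusted p = 0.172, but 0.00566 with the library code as a term and 0.0471 in the joint fit). Dnm3, a dynamin relative, fell by 1.04 in Alk1 (1817 to 882, adjusted p = 9.61e-07) and rose by 0.27 in Smad4 (adjusted p = 0.0159, and 0.00445 to 0.487 over 22 alternatives). With IgG its change was 0.05 to 0.30 and called in 0 of 15 alternatives. The ends of the list were low genes, Pacsin1 at -1.29 in Smad4 (77 to 33, adjusted p = 0.0487 and over 0.05 without any of 7 libraries) and Cavin4 at 1.34 in Alk1 (32 to 93).

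Of 17 genes of clathrin coats and adaptors, which serve Tfrc uptake, 5 rose and 4 fell in Smad4, 4 and 3 in Alk1, 2 and 4 in Eng, and 2 and 4 with IgG, beside 17.2 and 15.8%, 17.5 and 15.7%, 12.4 and 9.08%, and 13.0 and 10.6% of all genes. The next lists in this paragraph have the same background. Hip1, which links clathrin to actin, fell in all 4 comparisons, by 0.31, 0.70, 0.32 and 0.31. Dab2, a cargo adaptor, fell by 0.42 in Smad4 (adjusted p = 0.00583), 0.48 in Alk1 (adjusted p = 0.000279) and 0.25 with IgG (adjusted p = 0.00765), and was -0.16 in Eng (adjusted p = 0.0988). Bin1, a membrane-curving protein, rose by 0.50 in Smad4 and 0.74 in Alk1. With IgG its change was 0.03 to 0.17 and called in 0 of 15 alternatives, and in Eng 0.00 to 0.06 and called in 0 of 20. Endosome and recycling genes (15) gave 3 up and 1 down in Smad4, 5 and 3 in Alk1, 1 and 3 in Eng, and 5 and 1 with IgG. Rab11fip5, an adaptor of recycling endosomes, rose by 1.00 in Smad4 (2846 to 5677, adjusted p = 3.42e-06), 0.72 in Alk1 and 0.85 with IgG, and was 0.08 in Eng (adjusted p = 0.347). Rab5c, a GTPase of early endosomes, rose by 0.46, 0.31 and 0.37 in the same 3 comparisons, while Rab5b rose by 0.23 in Alk1 and fell by 0.23 in Eng. The Alk1 call of Rab5b was lost without wild type 2 or 5 or mutant 2 or 4 (0.20 to 0.22, adjusted p up to 0.061). Of 8 vesicle fusion genes 1, 0, 1 and 1 rose and 0, 0, 1 and 0 fell. Nsf, the ATPase that recycles fusion complexes, rose in Smad4, Eng and IgG mutants by 0.25, 0.18 and 0.37, and Stxbp3, a partner of syntaxins, fell by 0.17 in Eng, but not without wild type 2 (adjusted p = 0.0507). Vamp3, a vesicle SNARE, passed in no cohort (0.14, 0.19, -0.04 and 0.09), although without Alk1 wild type 4 or mutant 1 its Alk1 change was 0.22 and 0.23 (adjusted p = 0.0433 and 0.0199). With the library code as a term it passed in Smad4 and Alk1 (adjusted p = 0.0135 and 0.0432).

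The other transcytosis receptors (15 genes) had list medians of -0.29 in Smad4 (2 rose, 6 fell), -0.13 in Alk1 (4 and 3), -0.25 in Eng (2 and 7) and -0.19 with IgG (1 and 3). Over all genes the medians were -0.01, -0.01, -0.01 and 0.00, with 17.2, 17.5, 12.4 and 13.0% higher and 15.8, 15.7, 9.08 and 10.6% lower. Fcgrt, the neonatal Fc receptor that returns IgG to blood, fell by 0.52 in Smad4 (6867 to 4800, adjusted p = 0.000112) and 0.57 in Eng (8784 to 5939, adjusted p = 1.91e-05), and was -0.08 in Alk1 (adjusted p = 0.496). With IgG its change was -0.38 to 0.01 and called in 2 of 15 alternatives. Cd320, the receptor for transcobalamin, fell by 0.92 in Alk1 (2049 to 1088, adjusted p = 9.2e-06), 0.50 in Eng and 0.31 in Smad4, where leaving out any of 7 libraries ended the call (adjusted p = 0.0571 to 0.0949). With IgG its change was -0.31 to -0.16 and called in 3 of 15 alternatives. Igf2r, which sorts lysosomal enzymes, rose in all 4 comparisons, by 0.71, 0.37, 0.44 and 0.34, with adjusted p = 0.0628 and 0.0608 for IgG without wild type 2 or 3. Among 9 carriers of lipids beside Mfsd2a, 1 rose and 4 fell in Smad4 and in Alk1. Of 8 tested, 0 rose and 2 fell in Eng, and 1 and 2 with IgG. List medians were 0.03, -0.13, -0.08 and -0.04. The highest change in Smad4 and Alk1 was that of Fabp4, a fatty acid binding protein, at 1.34 and 2.35. Fabp4 was called in 11 of 17 alternatives in Smad4 and 20 of 22 in Alk1. It was not tested in Eng or with IgG. In Smad4 it passed the filter on low values in only 5 of the 10 runs that left out 1 library. Its Smad4 change is thus that of a low gene at the limit of the filter. Acsl3, which activates fatty acids, fell in all 4 comparisons by 0.85, 0.57, 0.34 and 0.63, as did Slc27a1, a fatty acid transporter, by 1.12, 0.43, 0.56 and 0.99. Spns2, a sphingosine-1-phosphate exporter, fell by 0.48 in Smad4 and 0.32 in Alk1. With IgG its change was -0.17 to 0.21 and called in 0 of 15 alternatives, and in Eng it was called in 0 of 20. In libraries without a code with the replicate block the Alk1 calls of Slc27a1 and Spns2 were lost (adjusted p = 0.178 and 0.0706), as were those of Rab5c (0.0638), Rab5b (0.176) and Cavin4 (0.103) named above and Fth1 (0.127) named below.

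Of 14 other genes of iron handling tested (Tfr2 was too low), 1 rose and 6 fell in Smad4, 4 and 5 in Alk1, 1 and 6 in Eng, and 0 and 7 with IgG, where 15.8, 15.7, 9.08 and 10.6% of all genes fell and 17.2, 17.5, 12.4 and 13.0% rose. Fth1, whose element is shown above, fell from 96668 to 42545 in Smad4 (log2 -1.19, adjusted p = 1.87e-06), from 91495 to 43335 with IgG (-1.08, adjusted p = 0.00011) and by 0.47 in Alk1 (adjusted p = 0.0232, and 0.0589 without wild type 1). In Eng it was -0.21 (adjusted p = 0.0562, and 0.0364 without wild type 4, 0.0272 with the library code as a term). Slc40a1, with the same kind of element, fell in all 4 comparisons, by 0.40, 1.05, 0.37 and 0.21. With IgG that call was lost without wild type 1, 2 or 3 or mutant 2 or 3 (adjusted p = 0.0583 to 0.168). Ftl1, the other gene with an element, was 0.08, 0.06 and 0.07 in Smad4, Alk1 and IgG and rose by 0.20 in Eng. Slc40a1 and Ftl1 are named for their element, after values had been seen. Ncoa4, which takes ferritin to lysosomes, fell in all 4, by 0.42, 0.70, 0.24 and 0.45, the Eng call being lost without mutant 3 (-0.21, adjusted p = 0.0516). Trf, the transferrin that Tfrc binds, rose by 0.77 in Alk1 (8442 to 14460, adjusted p = 3.12e-05), where Tfrc fell most, rose by 0.23 in Smad4 and fell by 0.42 in Eng. With IgG its change was -0.05 to 0.04 and called in 0 of 15 alternatives. The Smad4 call of Trf was lost after division by totals (0.15, adjusted p = 0.0791) or quantile normalization (0.10, 0.217), with the glial and neuronal level (0.0525) or the pericyte and smooth muscle level (0.0613) as a term and in libraries without a code (0.0741). With the erythroid level as a term, Ncoa4 was -0.17 in Smad4 (adjusted p = 0.721) and -0.62 in Alk1 (0.0731), and Slc40a1 was -0.20 in Smad4 (0.745) and -0.91 in Alk1 (0.104). Fth1 was -0.78 in Alk1 (0.178), and Trf 0.22 in Smad4 (0.493), while the Fth1 call in Smad4 and the Trf call in Alk1 were kept.

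**Figure D5:**
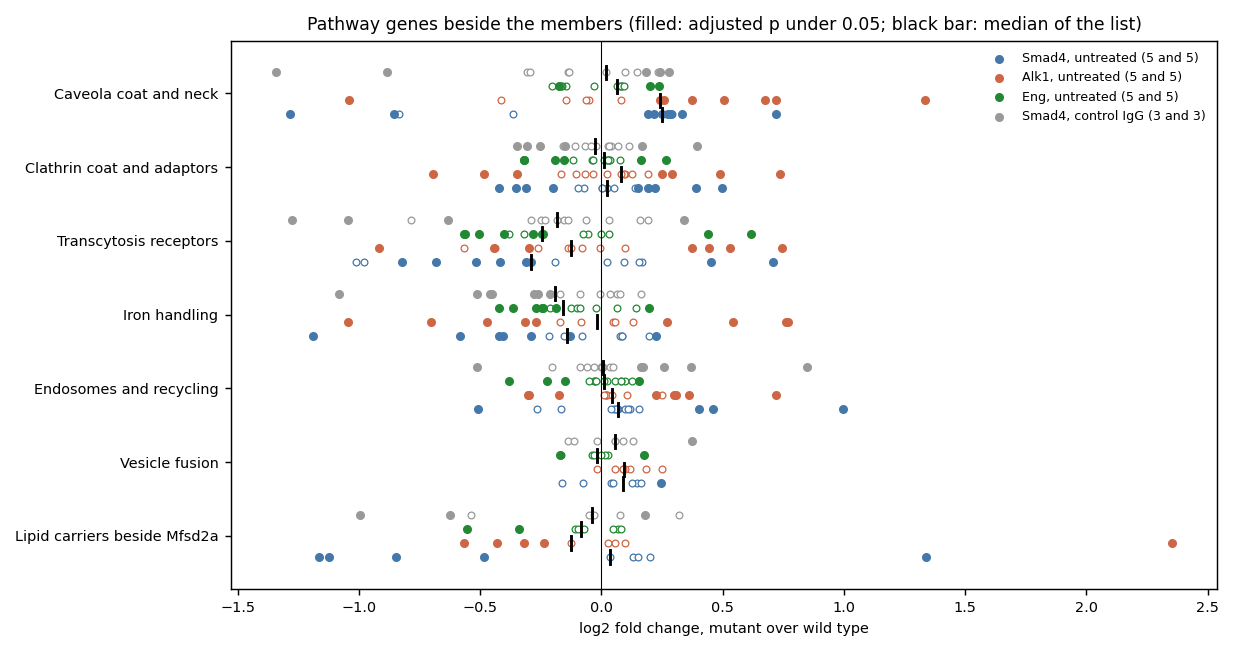
Log2 fold change of every tested gene of 7 lists, mutant over wild type, in rows for each comparison (Smad4, Alk1, Eng and IgG-treated Smad4); filled points passed an adjusted p of 0.05 and the black bar is the median of the list. The caveola list has medians of 0.25 in Smad4 and 0.24 in Alk1, and the receptor list has medians of -0.29 in Smad4 and -0.25 in Eng.

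Over the 30 untreated libraries, centred on the wild-type mean of each table, the genes most like a member were sought among 13492 tested in all cohorts. Libraries of a group share genotype, so these correlations describe shared differences between groups as well as within them. For Mfsd2a they were Slc36a1 (Pearson r = 0.95), an amino acid transporter, Slc44a5 (0.94), of the choline transporter-like family, and Spock2 (0.94), a matrix proteoglycan. Tfrc was followed by Gkn3 (0.92), Kdelc2 (0.91) and the glutamine transporter Slc38a5 (0.90). For Plvap they were Dhh (0.93), a hedgehog ligand, the adenylate cyclase Adcy4 (0.93) and Pomt2 (0.92), a mannosyltransferase. Cav1 had lower values, with Cstf3 (0.85), E2f7 (0.83) and Sele (0.83), the endothelial selectin of inflamed vessels. Among the members themselves the highest r was 0.73 between Mfsd2a and Tfrc and the lowest -0.70 between Mfsd2a and Pacsin2, and that of Cav1 with Cav2 was 0.48.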

How the data were processed

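The authors deposited, for each cohort and antibody, a table of normalised values per gene and library, used here as a signal, although the labels speak of raw counts. These values are not whole, so the count test first planned was replaced by limma. The submitters' processing notes name mm10, while aligner, counting and normalisation have no source here. Depth was inferred from the smallest step in each library, and summed values were 25.5 to 42.8 M per library.

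Per the labels' protocols, brain tissue was digested with a kit, endothelial cells were pulled out with PECAM-coated beads, and TruSeq libraries followed. Of 24972 genes per table, 26 were dropped because some tables give their names as dates. Columns of the untreated cohorts name a group only, so their replicate numbers are file order. A further 3 columns match no sample described here and were not used. Library codes come from column names.

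Values were transformed as log2(value + 2), which understates changes of low genes. A gene was tested if its value reached 20 in 5 libraries of an untreated cohort, or in 3 of the antibody cohort. Tests were 2-sided, in limma 3.58.1 (R 4.3.3) with an intensity trend, with Benjamini-Hochberg adjustment over all genes tested and a threshold of 0.05. Each cohort was fitted alone, the IgG comparison with the scaled LC10 libraries as a further group, and differences between cohorts came from joint fits. The fit within a cohort was also run on simulated data with independent noise per gene and without the LC10 group. Those data hold no library codes or carried-over cells, so the run cannot check their effect. Alternatives were a pseudocount of 10, no filter, division by totals, quantile normalization, marker and code terms, code subsets, joint fits, the replicate block with IgG and leaving out each library. The pericyte term, the subsets of coded libraries and the 2 ratios were added after seeing the data.

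Members and lists were chosen with earlier results of these data known. Named genes are all members, the targeted genes, the 3 per list with the smallest adjusted p in an untreated cohort, the ends of a stated range and the 3 most correlated with each of Cav1, Plvap, Mfsd2a and Tfrc. Numbers 1 to 3 in the names of untreated columns without a library code were checked for pairing across genes. Same-numbered Alk1 wild types and mutants had r of 0.16, 0.19 and 0.11, and differently numbered ones -0.17 to -0.02. Differently numbered Smad4 libraries reached 0.36, so r of this size does not establish pairs. A fit of the 3 and 3 Alk1 libraries without a code, with the number as a block, was added after seeing the data. It is given where it changes a call. Exonic lengths and gene positions are from GENCODE M21, and promoter windows from RefSeq (GRCm38.p6).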

Additional observations from a re-analysis of the deposited data

Results flagged for a closer look

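In groups of 5 libraries, a library was marked when its gap to the nearest other library took up more of the group's range than Dixon's 95% value allows. Of 48 groups checked 4 were marked, beside about 1 in 20 by chance. Tfrc accounted for 3 of them, with Smad4 wild type 3 high at 83932, Smad4 mutant 3 low at 41396 and the library labelled Alk1 mutant 5 high at 66438. Cav2 gave the other, with the library labelled Alk1 mutant 2 low at 5054. The Tfrc change in the Alk1 cohort was -1.32 without mutant 5 and -1.18 with it, and in Smad4 it was -0.43 without wild type 3 and -0.46 without mutant 3, beside -0.51 with both, each called by limma. The Cav2 change in the Alk1 cohort was called only without mutant 2 among the libraries left out singly (0.27, adjusted p = 0.0403).

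The genotype effect differed between cohorts for 3 members in the joint fit of limma. Plvap differed between each pair of cohorts, by 1.48 on the log2 scale for Smad4 minus Alk1, 0.72 for Smad4 minus Eng and -0.76 for Alk1 minus Eng (adjusted p = 7.09e-08, 0.00272 and 0.00108). Cav1 differed by -0.57 for Smad4 minus Alk1 and -0.53 for Smad4 minus Eng (adjusted p = 0.00527 and 0.0177). Tfrc differed by 0.67 for Smad4 minus Alk1 and -1.01 for Alk1 minus Eng (adjusted p = 0.00672 and 0.000186). Age and tamoxifen schedule differ with the Alk1 cohort and cannot be told apart from the floxed gene.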

How the results depend on the processing

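No tested change of a member, ratio or named list gene that was called, with the main settings or the alternative, reversed sign. Of the members' changes and differences under alternatives, 1306 kept their side of the threshold, 41 lost a call and 21 gained one. Genes called in Smad4 (4620) were 2440 with the glial and neuronal level as a term, 120 with the erythroid level, 1901 with the pericyte and smooth muscle level and 2461 without coded libraries. Members called there (5) were 0 with the erythroid level and 3 without coded libraries. In Alk1, genes called (4530) were 499 with the erythroid level, 1860 with the pericyte level and 2005 without coded libraries, and members (5) were 1, 3 and 3. In Eng, genes (3082) were 1602 in the joint fit and members (3) were 5 with L210 libraries only. With IgG, genes (3346) were 1489 with the erythroid and 467 with the pericyte level. Members with IgG (2) were 0 with the glial level and 1 each with quantile normalization, the erythroid level, the pericyte level, the IgG libraries alone and the replicate block. For Smad4 minus IgG, 1 gene became 0 with a pseudocount of 10. The cause was not tested for these. Dividing by totals changed higher calls from 51.7 to 33.8% of calls for Smad4 minus Eng and from 53.7 to 38.8% for Alk1 minus Eng.

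Leaving out each library in turn gave 3358 to 5547 genes and 5 members in Smad4, 3835 to 4833 genes and 5 to 6 members in Alk1, 2426 to 3142 genes and 2 to 4 members in Eng, and 1772 to 3787 genes and 0 to 3 members with IgG. Differences gave 2037 to 2784 genes and 3 to 4 members for Smad4 minus Alk1, 802 to 1817 and 2 for Smad4 minus Eng, 1646 to 2769 and 2 for Alk1 minus Eng, and 0 to 4 and 0 for Smad4 minus IgG. The fourth member of Smad4 minus Alk1 was Ehd2, without Alk1 wild type 5 or mutant 1 or 2. With LC10 values as deposited, LC10 minus IgG mutants was -0.54 for Cav1, -0.42 for Cav2, -0.23 for Plvap, -0.39 for Mfsd2a, -0.45 for Ehd2, -0.31 for Pacsin2, -0.29 for Dnm2 and -0.34 for Tfrc. Leaving out 1 library, these scaled differences were -0.26 to -0.10, -0.13 to 0.04, 0.02 to 0.22, -0.08 to 0.10, -0.15 to -0.04, 0.04 to 0.09, 0.06 to 0.12 and -0.24 to 0.18 in the same order. Same-numbered IgG wild types and mutants did not deviate together (r of 0.04, 0.02 and -0.06 across genes), so the numbers were not taken as pairs. With the replicate block of the IgG cohort 2451 genes and 1 member were called, Mfsd2a losing its call (-0.32, adjusted p = 0.0566). In untreated columns without a library code the numbers 1 to 3 gave r of -0.08, 0.17 and -0.10 in Smad4, so they were not taken as pairs there. A replicate block on these libraries gave 1553 genes and 3 members in Smad4 and 2174 genes and 4 members in Alk1, beside 2461 and 3, and 2005 and 3, without the block. No paired analysis was possible because fewer than 2 numbers are shared between genotypes for the Eng and the coded columns. Depth limits low genes such as Cavin4, not the members, whose values were above 1000 in every library.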
